A study of Mus musculus with 8 samples.

Results

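Stromal and homeostatic chemokines are the secreted proteins that hold, guide and place leukocytes in resting tissue. Transcripts of 10 genes listed under that name were followed in laser-captured mouse endometrium: *Ccl11*, *Cxcl14*, *Cxcl12*, *Ccl2*, *Ccl7*, *Ccl8*, *Ccl19*, *Ccl28*, *Cxcl17* and *Cx3cl1*. The name is that of the list and may not hold for each gene. The 10 genes are among 52325 genes in the counts table and were matched by gene symbol. They were chosen by their counts in *Thra1PV/+* against WT libraries, several of them being lower in the mutant, so that difference is given for them as a description with no test. The libraries came from 4 WT mice and 4 *Thra1PV/+* mice, all in metestrus, the phase after ovulation. In *Thra1PV/+* mice, 1 of the alleles of *Thra* bears the PV mutation in every cell and makes a thyroid hormone receptor α1 that cannot respond to hormone and that blocks the normal receptor. The labels name no treatment and no age for these mice. The dissected tissue held surface epithelium, glands, stroma and resident leukocytes together, so fewer cells of a type and less RNA per cell cannot be told apart.

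Chemokines are small proteins that bind membrane-spanning receptors on leukocytes and draw the cells along a gradient. Cells display them on heparan sulfate chains, proteases trim them, and atypical receptors remove them without signalling. Inflammatory chemokines are switched on by infection or injury, whereas homeostatic ones are made steadily by stroma and epithelium. In the uterus they place eosinophils, macrophages, natural killer cells and plasma cells through the cycle and at implantation. *Cxcl12*, the ligand of *Cxcr4*, holds many leukocytes and progenitor cells near stroma. *Ccl11*, also called eotaxin, draws eosinophils through *Ccr3*. *Ccl2* and *Ccl7* call monocytes through *Ccr2*. *Ccl28* and *Cxcl17* are known from mucosal epithelium, and *Cx3cl1* is made as a membrane-bound protein that holds cells with *Cx3cr1*.

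Measured as CPM, a gene's share of a library's counts scaled by TMM normalization, the genes were not highest in the same libraries. *Cxcl12* was highest in the 3 libraries with the most stromal transcripts. *Ccl28*, *Cxcl17* and *Cx3cl1* were lowest in those libraries, which held the least simple epithelium, so the markers did not bear out the word stromal for them. *Ccl2* and *Ccl7*, neighbours on chromosome 11, were high and low in the same libraries. Within genotypes they ran against the stromal markers (Pearson's r = -0.777 and -0.787, exact permutation test, adjusted p = 0.0764 for each). The markers thus did not bear out the word stromal for *Ccl2* and *Ccl7* either. Both, like *Cxcl2*, were highest in WT library 4 and *Thra1PV/+* library 2 of their genotypes. Whether the word homeostatic holds for *Ccl2*, *Ccl7* or *Ccl8* was not tested. *Ccl11* (r = -0.337) and *Ccl8* (r = 0.135) had weaker relations to the stromal markers. *Ccl11* and *Cxcl14* were the 2 genes whose WT and *Thra1PV/+* libraries did not overlap, with mean CPM 8.81-fold and 3.69-fold higher in WT.

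The libraries differed in tissue content, which touches each of these values. The summed CPM of 12 stromal markers ran from 609 to 6778 in *Thra1PV/+* and from 1981 to 6581 in WT libraries, and that of 8 simple epithelium markers from 2207 to 5440 and from 2213 to 5912. WT library 1 stood apart by smooth muscle transcripts, with a summed CPM of 12640 over 6 genes against at most 1094 in the other libraries, and the values that it moves most are also given without it. Markers of squamous epithelium summed to between 2826 and 4375 in *Thra1PV/+* and between 1.26 and 64.4 in WT libraries. Library totals ranged from 48791602 to 59818887 counts. *Thra* itself was at 45.8 to 127 CPM in *Thra1PV/+* and 47.4 to 110 CPM in WT libraries (log2 fold change 0.04 ± 0.39 SE, adjusted p = 0.987 by edgeR's quasi-likelihood test), which does not separate the mutant from the normal allele. The 8 samples are labelled as separate replicates of a genotype without naming the animals, so tests measure the spread between these samples.

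Promoter sequence was read for the members with a window in the set of RefSeq promoters used, 6 of 10 (GRCm38.p6): *Ccl8*, *Ccl19*, *Ccl28*, *Cx3cl1*, *Cxcl12* and *Cxcl14*. Shown are the 250 bases before the start for 4 genes, 5′ to 3′ on the strand of the gene with matches in capitals. They are *Cxcl12*, highest where stromal transcripts were most, *Cxcl14*, whose genotypes did not overlap, *Ccl28*, lowest where epithelium was least, and *Ccl8*. *Ccl8* is the gene of the chromosome 11 cluster with a window in that set, and its order of libraries was not that of *Ccl2* and *Ccl7*. Motifs were searched on both strands. The TATA box was searched as the letters TATAAA, the GC box as GGGCGG, which is CCGCCC on the other strand, the core bound by nuclear receptors as AGGTCA, which is TGACCT on the other strand, and the AP-1 site as TGANTCA. Of 32544 windows of the same length, 12.3% held a TATA box, 33.0% a GC box, 14.0% a nuclear receptor core and 6.73% an AP-1 site. The *Cxcl12* window held 5 GC boxes, of which 2 overlap next to the start, and no TATA box. The *Cxcl14* window held 1 nuclear receptor core, 130 bases before the start. The *Ccl28* window held 1 GC box, 64 bases before the start, and the *Ccl8* window held a TATA box 32 bases before it. The AP-1 letters were in 0 of the 6 windows, which says only that they were not there. A match is a description and not a site in use.
Cxcl12 (chr6:117168285-117168534, plus strand): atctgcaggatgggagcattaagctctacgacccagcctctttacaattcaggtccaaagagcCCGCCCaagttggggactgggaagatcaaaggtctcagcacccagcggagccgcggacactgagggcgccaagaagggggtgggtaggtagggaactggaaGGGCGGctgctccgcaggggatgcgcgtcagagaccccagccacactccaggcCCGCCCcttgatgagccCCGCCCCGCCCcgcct
Cxcl14 (chr13:56296552-56296801, minus strand): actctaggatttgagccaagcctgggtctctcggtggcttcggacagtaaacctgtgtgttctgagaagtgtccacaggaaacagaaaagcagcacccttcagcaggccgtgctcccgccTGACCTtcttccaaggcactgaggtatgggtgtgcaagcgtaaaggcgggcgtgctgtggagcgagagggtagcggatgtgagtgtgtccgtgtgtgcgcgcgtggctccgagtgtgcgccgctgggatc
Ccl28 (chr13:119623569-119623818, plus strand): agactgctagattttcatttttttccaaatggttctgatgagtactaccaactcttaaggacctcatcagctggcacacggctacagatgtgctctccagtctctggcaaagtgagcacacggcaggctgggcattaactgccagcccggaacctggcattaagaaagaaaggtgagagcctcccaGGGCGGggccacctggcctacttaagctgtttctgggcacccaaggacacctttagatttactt
Ccl8 (chr11:82114935-82115184, plus strand): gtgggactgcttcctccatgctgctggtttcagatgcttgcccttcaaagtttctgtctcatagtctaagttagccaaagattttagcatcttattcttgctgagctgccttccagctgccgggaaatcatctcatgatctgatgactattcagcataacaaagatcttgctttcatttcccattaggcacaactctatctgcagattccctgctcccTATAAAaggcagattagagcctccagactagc

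Levels between genes were compared per length, as CPM per kilobase of annotated exon (GENCODE M21). In WT endometrium the order from high to low was *Cxcl17* at 475 ± 465 (SD, n = 4), *Cxcl14* at 146 ± 65.0, *Ccl28* at 70.1 ± 55.7, *Ccl8* at 28.5 ± 18.7, *Cx3cl1* at 23.3 ± 14.0, *Ccl11* at 22.1 ± 18.6, *Ccl2* at 13.7 ± 17.8, *Cxcl12* at 13.6 ± 12.4, *Ccl7* at 12.4 ± 15.01 and *Ccl19* at 0.0387 ± 0.0631 CPM per kilobase. Down to *Ccl7* the range of each gene overlapped that of its neighbour in this order, and *Ccl19* lay below all of them. In *Thra1PV/+* endometrium *Cxcl17* was again highest at 205 ± 69.3 and *Ccl28* came next at 50.7 ± 23.6, ahead of *Cxcl14* at 39.6 ± 21.05 CPM per kilobase. The length used was that of all annotated exons of a gene merged over its transcripts, 8176 bases for *Cxcl12*. Such a length can exceed that of any single transcript, which lowers the value per kilobase. By the deposited TPM *Cxcl12* stood ahead of *Ccl8* in WT with a mean of 73.9 ± 66.1 TPM (SD, n = 4). Only 5 of the 10 genes kept their rank between these scales.

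Ccl11 (chromosome 11, 82057823 to 82062955, plus strand, GRCm38), the eosinophil attractant, was at 13.8, 7.96, 53.0 and 20.8 CPM in WT libraries 1 to 4 and at 2.31, 1.10, 6.03 and 1.42 CPM in Thra1PV/+ libraries 1 to 4. Every WT library was above every Thra1PV/+ library, and library 3 was the highest of each genotype. The means were 23.9 ± 20.1 and 2.71 ± 2.27 CPM (SD, n = 4), and the fitted log2 fold change was -3.14 ± 0.76 (SE). Leaving out WT library 3 moved it to -2.37, and without Thra1PV/+ library 3 it was -3.89. Eosinophil transcripts were few, with a summed CPM of 2.13 to 4.72 in Thra1PV/+ and 1.49 to 9.19 in WT libraries, and 2 of the 7 eosinophil markers, Epx and Ear6, were at 0 in all 8 libraries. The highest sum came from Il5ra in WT library 3, at 8.40 CPM. Of the 4 eosinophil markers tested, 2 had a log2 fold change above 0 and 2 below 0, with a median of 0.07. That of Il5ra was -3.02, and -0.50 without WT library 3. Siglecf was higher in every Thra1PV/+ library than in every WT library, with a log2 fold change of 1.004 ± 0.32 (SE, adjusted p = 0.349 by edgeR and 0.0646 by DESeq2, which called it), and Prg2 had 2.17 ± 0.84 (SE, adjusted p = 0.447 by edgeR).

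Cxcl14 (chromosome 13, 56288643 to 56296551, minus strand), a homeostatic chemokine of epithelium and stroma, was at 212, 435, 161 and 259 CPM in WT and at 85.7, 34.6, 48.9 and 120 CPM in Thra1PV/+ libraries. The lowest WT library exceeded the highest Thra1PV/+ library, as it did for Ccl11. The means were 267 ± 119 and 72.4 ± 38.5 CPM, with a log2 fold change of -1.88 ± 0.45 (SE). It was the gene of the group with the smallest standard error, and leaving out any library kept the log2 fold change between -2.24 and -1.51.

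Cxcl12 (chromosome 6, 117168535 to 117181367, plus strand), the stromal ligand of Cxcr4, was at 247, 129, 22.9 and 45.2 CPM in WT and at 61.4, 4.77, 19.98 and 16.4 CPM in Thra1PV/+ libraries. The genotypes overlapped, since Thra1PV/+ library 1 was above WT libraries 3 and 4. The same libraries, WT 1 and 2 and Thra1PV/+ 1, held the most stromal transcripts. The log2 fold change was -2.11 ± 0.91 (SE), and without WT library 1, the library rich in smooth muscle, it was -1.31.

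*Ccl2*, *Ccl7*, *Ccl11* and *Ccl8* lie in this order within 81229 bases of chromosome 11, all on the plus strand. *Ccl2* (82035571 to 82037453), the main monocyte attractant, was at 3.28, 0.469, 13.8 and 44.6 CPM in WT and at 0.771, 8.28, 1.88 and 1.72 CPM in *Thra1PV/+* libraries. WT library 4 was the highest and WT library 2 the lowest of all 8, so the WT range of 95.01-fold contained every *Thra1PV/+* library. *Ccl7* (82045712 to 82047525), which also binds *Ccr2* and starts 8259 bases after the end of *Ccl2*, was at 2.86, 0.524, 9.25 and 27.1 CPM in WT and at 0.477, 3.57, 2.27 and 0.981 CPM in *Thra1PV/+* libraries. Both genes were high in WT libraries 3 and 4 and, among the mutants, in library 2. The ratio of *Ccl2* to *Ccl7* CPM stayed between 0.8288 and 2.32 in the 8 libraries.

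The fitted log2 fold changes were -2.30 ± 1.25 for *Ccl2* and -2.44 ± 1.11 (SE) for *Ccl7*. Without WT library 4 they were -0.90 and -1.21, and without *Thra1PV/+* library 2 they were -3.42 and -3.001. The sizes of these differences thus rested on single libraries. *Ccl8* (82115185 to 82116799), another monocyte attractant, had another order of libraries and was at 26.3, 2.997, 13.6 and 15.4 CPM in WT and at 8.04, 2.23, 8.19 and 6.18 CPM in *Thra1PV/+* libraries. Its log2 fold change was -1.24 ± 0.63 (SE), and -0.76 without WT library 1. Salmon assigns reads among like sequences, and *Ccl2*, *Ccl7*, *Ccl8* and *Ccl11* are related genes of 1 family.

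Ccl28 (chromosome 13, 119623819 to 119654359, plus strand), which draws plasma cells to mucosae through Ccr10, was at 164, 57.02, 609 and 528 CPM in WT and at 103, 226, 377 and 278 CPM in Thra1PV/+ libraries. The genotypes overlapped through most of the range, and the log2 fold change was -0.47 ± 0.70 (SE). Cxcl17 (chromosome 7, 25400053 to 25412886, minus strand), a mucosal chemokine, was at 128, 104, 867 and 348 CPM in WT and at 81.9, 189, 198 and 156 CPM in Thra1PV/+ libraries. Its log2 fold change was -1.21 ± 0.66 (SE), and only -0.28 without WT library 3, the highest of the 8.

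Cx3cl1 (chromosome 8, 94772009 to 94782427, plus strand), the membrane-bound chemokine, was at 63.4, 28.9, 128 and 146 CPM in WT and at 54.6, 122, 98.7 and 89.4 CPM in Thra1PV/+ libraries. The mean levels were 91.6 ± 54.9 and 91.1 ± 27.9 CPM, and the log2 fold change of -0.01 ± 0.48 (SE) was positive under 11 of 16 alternative settings. Ccl28, Cxcl17 and Cx3cl1 were all lowest in the 3 libraries with the least epithelium, WT 1 and 2 and Thra1PV/+ 1. Ccl19 (chromosome 4, 42754525 to 42756577, minus strand), a ligand of Ccr7 known from lymph node stroma, had 6, 0, 1 and 0 counts in WT and 1, 0, 2 and 0 counts in Thra1PV/+ libraries. It did not pass the count filter, and 3 counts, the limit that a count of 0 allows, correspond to 0.0525 to 0.0628 CPM in these libraries, a limit that covers counting error only.

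**Figure D1:**
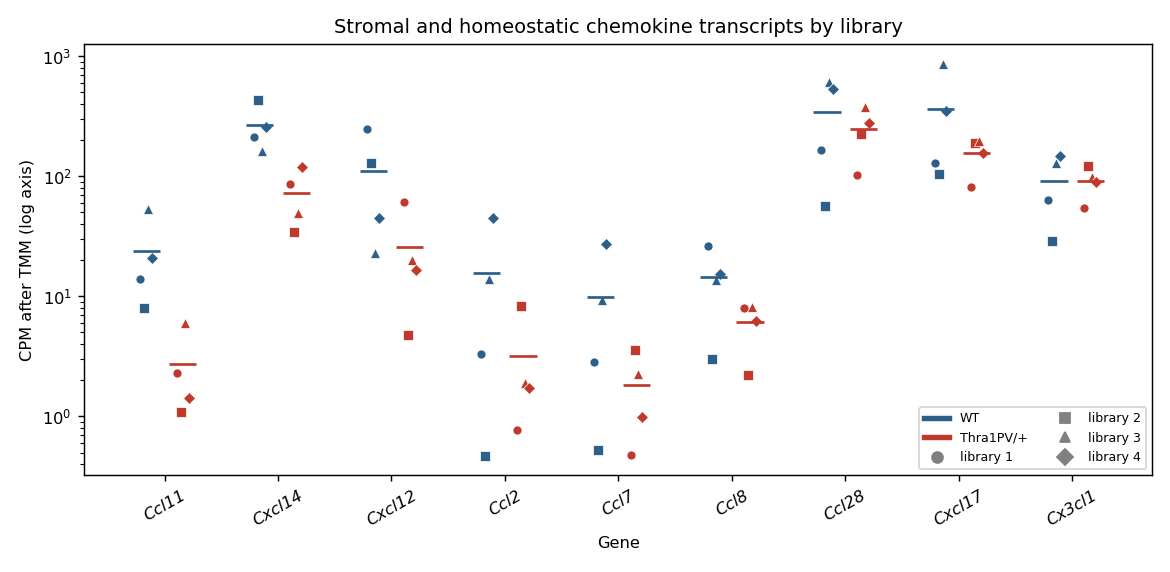
CPM after TMM normalization of 9 chemokine genes in each library, on a log axis, with blue for WT, red for Thra1PV/+, a marker shape for each library number and a bar at the mean of each genotype (n = 4). Red and blue points do not overlap for Ccl11 and Cxcl14, and Ccl2 and Ccl7 show the same order of libraries at the top, WT 4 and WT 3.

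Of the 9 genes that passed the count filter, 2 had no overlap between genotypes, and in all genes tested 6.04% had none (3.55% with *Thra1PV/+* higher and 2.49% with it lower). A gene was called where its level differed at least 2-fold with an adjusted p up to 0.1 by edgeR, and 0 of 9 were called against 0.99% of the 18174 genes tested (0.924% higher and 0.066% lower in *Thra1PV/+*). DESeq2 called 2 of 9 (*Ccl11* and *Cxcl14*) against 3.86% of all genes, and 3 of 9 had an unadjusted p under 0.05 by edgeR against 9.77%. These counts used the contrast by which the genes were listed, and nothing is read from them. The fitted log2 fold change was below 0 for 9 of 9 genes with a median of -1.88, beside -0.05 over all genes tested, of which 56.8% were below 0. Other settings turned *Cx3cl1* positive, and *Ccl28* too on log2 TPM, which left 8 of 9 or, where *Ccl19* entered the fit as well, 9 of 10 or 8 of 10 below 0. The median lay between -2.04 and -1.21 when each library was left out.

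**Figure D2:**
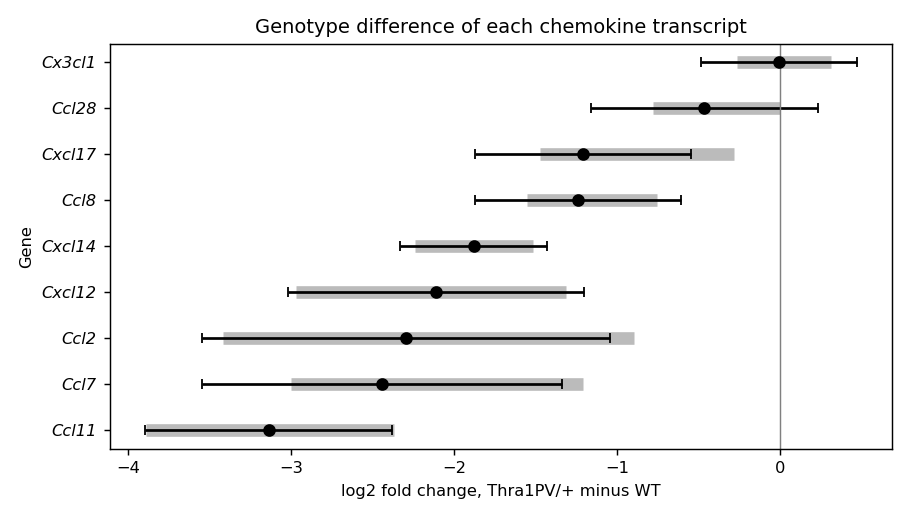
Log2 fold change of each chemokine gene, Thra1PV/+ minus WT, from edgeR (points, with bars of 1 standard error), and in grey the range when each of the 8 libraries is left out in turn. Ccl11 lies furthest to the left at -3.14 and Cx3cl1 sits at -0.01, and the grey ranges of Ccl2, Ccl7 and Cxcl17 reach beyond their error bars toward 0.

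Since tissue content differed, the level of each gene was also taken relative to the mean log2 CPM of the stromal and of the simple epithelium markers of the same library. The stromal mean was lower in *Thra1PV/+* libraries by a difference of -1.15 on the log2 scale, and the epithelial mean differed by 0.02. The 12 stromal markers were uneven, with log2 fold changes from -2.24 for *Dcn* to -0.05 for *Hand2*. Values relative to stroma thus depend on which markers are averaged. On log2 CPM alone, mean *Ccl11* differed between the genotypes by -3.09, relative to stroma by -1.93 and relative to epithelium by -3.11. Relative to stroma the genotypes overlapped for each of the 9 genes, and relative to epithelium they remained apart for *Ccl11*. *Cxcl14* differed by -1.95 on log2 CPM and by -0.79 relative to stroma, and *Cxcl12* by -2.10 and -0.95. Relative to epithelium they differed by -1.97 and -2.12.

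For *Ccl2*, *Ccl7* and *Ccl8* the differences relative to stroma were -0.23, -0.49 and 0.11, against -1.38, -1.64 and -1.04 on log2 CPM. Relative to epithelium they were -1.40, -1.66 and -1.06. *Ccl2* and *Ccl7* ran against the stromal markers within genotypes. So did *Ccl28*, *Cxcl17* and *Cx3cl1* (r = -0.778, -0.868 and -0.822), and *Ccl11* (r = -0.337) and *Ccl8* (r = 0.135) had weaker relations to them. For none of these genes can the stromal scale be read as allowing for tissue content. The epithelial set had values near 0 or of both signs relative to epithelium, with -0.10 for *Ccl28*, -0.79 for *Cxcl17* and 0.17 for *Cx3cl1*. Relative to epithelium, *Cxcl17* was almost the same in the 4 *Thra1PV/+* libraries, at -1.65, -1.54, -1.66 and -1.58 (SD 0.055), while the WT libraries spread from -1.71 to 0.36 (SD 0.86).

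**Figure D3:**
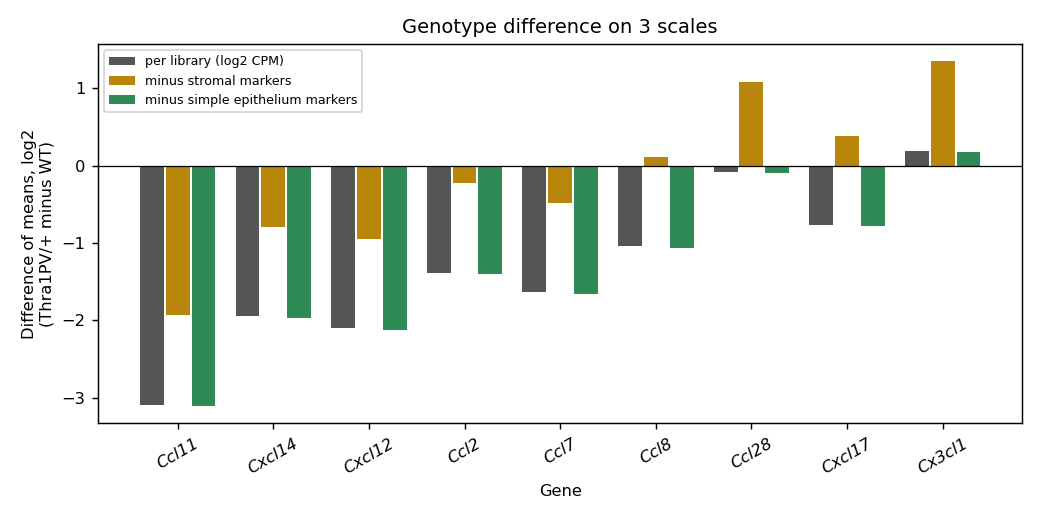
Difference of the genotype means on the log2 scale, Thra1PV/+ minus WT, for each chemokine gene per library (grey), minus the mean of 12 stromal markers (ochre) and minus the mean of 8 simple epithelium markers (green). The ochre bars are nearer 0 than the grey ones for Ccl11, Cxcl14, Cxcl12, Ccl2, Ccl7 and Ccl8, and Ccl8, Ccl28, Cxcl17 and Cx3cl1 lie above 0 on that scale. The ochre bars do not allow for tissue content in genes that did not follow the stromal markers within genotypes.

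The variation within genotypes was set against the same markers, after subtracting each genotype's mean from its libraries. This comparison was chosen after the library values had been seen, and it covered 18 relations over 8 libraries, each with an exact two-sided permutation test within genotype (576 arrangements, smallest possible p = 0.00174) and Benjamini-Hochberg adjustment over the 18. *Cxcl12* and the stromal markers had Pearson's r = 0.955 (exact permutation p = 0.0139, adjusted p = 0.0764) and Spearman's rho = 0.952 (exact permutation p = 0.0243). Without the 2 libraries with the most extreme centred marker level r was 0.975. For each such value the centring on all 8 libraries was kept, so an offset between genotypes can enter it. *Cxcl17* and the epithelial markers had r = 0.872 (exact permutation p = 0.0174, adjusted p = 0.0764), rho = 0.905 (exact permutation p = 0.0174) and r = 0.889 without 2 libraries.

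For *Ccl28* against epithelium r was 0.825 (exact permutation p = 0.0382, adjusted p = 0.0764), rho was 0.905 (exact permutation p = 0.0226) and r was 0.952 without 2 libraries. For *Cx3cl1* against epithelium r was 0.789 (exact permutation p = 0.0503, adjusted p = 0.0906), rho was 0.881 (exact permutation p = 0.0347) and r was 0.940 without 2 libraries. *Ccl2* and *Ccl7* ran against the stromal markers, with r = -0.777 (exact permutation p = 0.0295, adjusted p = 0.0764, rho = -0.905, exact permutation p = 0.0139, r = -0.692 without 2 libraries) and r = -0.787 (exact permutation p = 0.0260, adjusted p = 0.0764, rho = -0.905, exact permutation p = 0.0139, r = -0.660 without 2 libraries). *Cxcl14* had r = 0.671 with stroma (exact permutation p = 0.102, adjusted p = 0.142, rho = 0.738, exact permutation p = 0.0799, r = 0.536 without 2 libraries). *Ccl11* (r = -0.337, exact permutation p = 0.439, rho = -0.286, exact permutation p = 0.514, r = -0.262 without 2 libraries) and *Ccl8* (r = 0.135, exact permutation p = 0.738, rho = 0.214, exact permutation p = 0.618, r = 0.756 without 2 libraries) had weaker relations to it, and that of *Ccl8* turned on those libraries. The 9 relations given without a p had r between -0.869 (*Cxcl12* with epithelium) and 0.777 (*Ccl7* with epithelium). None of the 18 relations reached an adjusted p of 0.05. The 2 marker means themselves had r = -0.902 with each other, and all values of a library share its depth and its total.

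**Figure D4:**
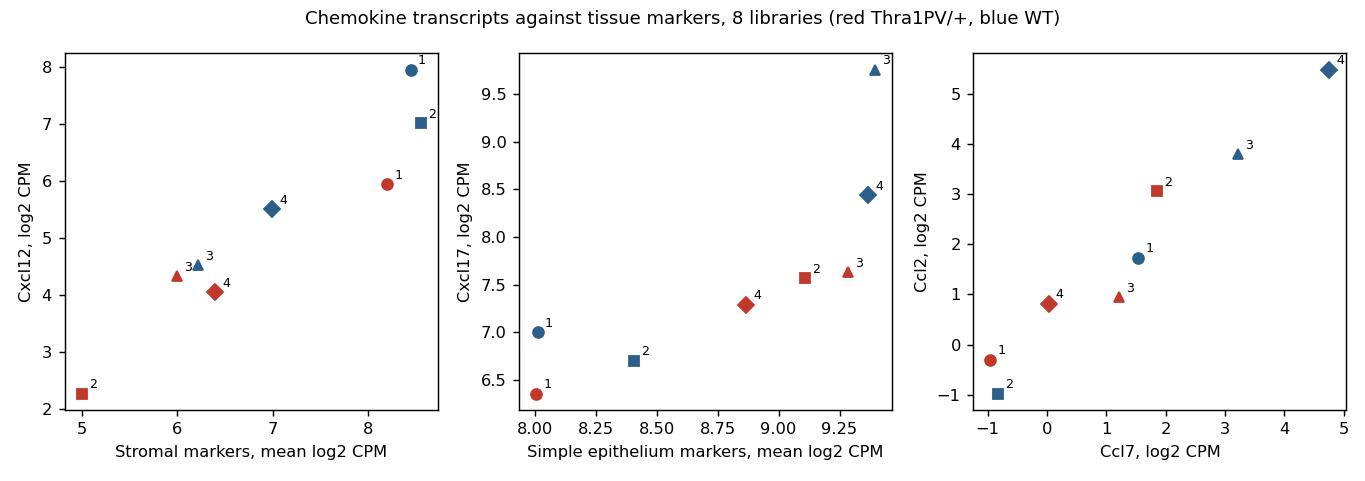
Log2 CPM of Cxcl12 against the mean of the stromal markers, of Cxcl17 against the mean of the simple epithelium markers, and of Ccl2 against Ccl7 in each of 8 libraries (blue WT, red Thra1PV/+, numbered by library). In each panel the libraries lie along a rising line, and the libraries low in Cxcl12, such as Thra1PV/+ 2, are low in stromal markers.

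The receptors were not used to list the ligands, and 10 of 13 passed the filter (*Ccr3*, *Ccr8* and *Ackr2* did not). *Gpr35*, a receptor proposed for *Cxcl17*, was at 1.34, 1.19, 1.55 and 2.93 CPM in WT and at 7.33, 6.37, 8.81 and 5.04 CPM in *Thra1PV/+* libraries. The genotypes did not overlap and *Gpr35* rose, with a log2 fold change of 1.97 ± 0.37 (SE, adjusted p = 0.0698 by edgeR's quasi-likelihood test). It was the 1 receptor called of 10, against 0.99% of all genes tested, and the call was kept in 1 of the 8 fits that left out a library, that without WT library 4 (adjusted p from 0.0511 to 0.236 in the 8 fits).

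*Cxcr4*, the receptor of *Cxcl12*, was at 14.8, 6.73, 7.64 and 16.6 CPM in WT and at 29.97, 23.9, 32.3 and 22.9 CPM in *Thra1PV/+* libraries. Its genotypes did not overlap either, so 2 of 10 receptors had no overlap, beside 6.04% of all genes tested. Both were higher in *Thra1PV/+*, beside 3.55%. The log2 fold change of *Cxcr4* was 1.25 ± 0.32 (SE), which did not pass the threshold by edgeR (adjusted p = 0.207) and did by DESeq2 (adjusted p = 0.0130). *Ccr1*, which binds *Ccl7* among other ligands, had a log2 fold change of 2.65 ± 1.03 (SE, adjusted p = 0.451 by edgeR and 0.0947 by DESeq2, which called it), with 7.28 to 32.8 CPM in *Thra1PV/+* and 0.379 to 8.37 CPM in WT libraries. Its log2 fold change was 4.37 without WT library 4 and 2.11 without *Thra1PV/+* library 2. An unadjusted p under 0.05 was met by 3 of 10 receptors with *Thra1PV/+* higher, beside 5.05% of all genes, and by 0 of 10 with *Thra1PV/+* lower, beside 4.72% (9.77% in either direction). The summed CPM of neutrophil markers, cells that carry *Ccr1*, was 74.7 to 722 in *Thra1PV/+* and 7.94 to 127 in WT libraries, and its part in the *Ccr1* values was not tested.

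The receptors of the monocyte attractants had smaller values. *Ccr2*, the receptor of *Ccl2* and *Ccl7*, was at 13.4 to 50.5 CPM in *Thra1PV/+* and 11.8 to 39.4 CPM in WT libraries, with a log2 fold change of 0.47 ± 0.49 (SE). *Cx3cr1*, the receptor of *Cx3cl1*, had 0.17 ± 0.50. *Ccr7*, the receptor of *Ccl19*, had -0.73 ± 0.95, and *Ccr10*, the receptor of *Ccl28*, had 0.99 ± 1.09 at no more than 0.756 CPM in any library, with 0.19 to 2.05 when each library was left out. *Ccr3*, the receptor of *Ccl11*, was at 0.333 CPM or less in every library, and *Ccr8*, a receptor of mouse *Ccl8*, at 0.035 CPM or less. The scavenging receptors *Ackr1*, *Ackr3* and *Ackr4* had -0.44 ± 0.37, 0.34 ± 0.50 and -0.17 ± 1.67. *Ackr4* was above 10 CPM in *Thra1PV/+* library 1 and WT library 2 alone.

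**Figure D5:**
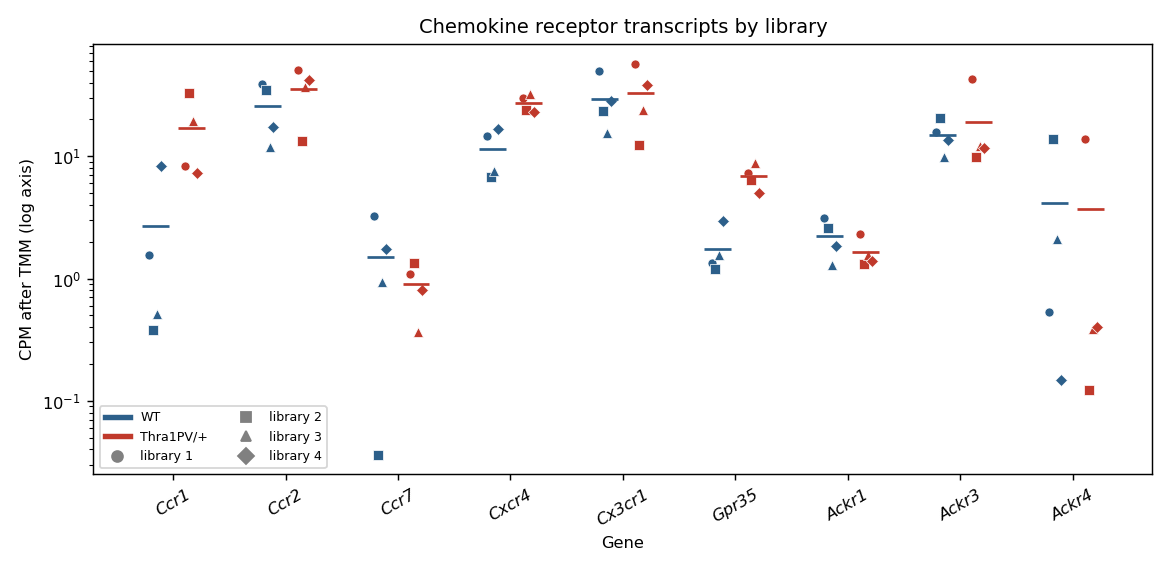
CPM after TMM normalization of 9 chemokine receptor genes in each library, on a log axis, with blue for WT, red for Thra1PV/+, a marker shape for each library number and a bar at the mean of each genotype (n = 4). The genotypes are apart for Cxcr4 and Gpr35 and overlap for the other receptors shown.

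Of 12 genes for enzymes and carriers that handle chemokines, 12 were tested and 1 was called, again beside 0.99% of all genes. *Sdc1*, the heparan sulfate carrier syndecan-1 of epithelium and plasma cells, was at 130, 88.2, 120 and 231 CPM in WT and at 347, 569, 480 and 334 CPM in *Thra1PV/+* libraries. It rose by a log2 fold change of 1.60 ± 0.32 (SE, adjusted p = 0.0944 by edgeR), and the call was kept in 1 of the 8 fits with a library left out, that without WT library 4 (adjusted p from 0.0511 to 0.284). The squamous markers separated the genotypes in the same direction (2826 to 4375 against 1.26 to 64.4 summed CPM), and their part in the *Gpr35* and *Sdc1* values was not tested. *Dpp4*, the protease that trims *Cxcl12* and *Ccl11*, was at 12.8 to 40.0 CPM in *Thra1PV/+* and 30.2 to 66.8 CPM in WT libraries, with a log2 fold change of -1.06 ± 0.38 (SE, adjusted p = 0.403 by edgeR). *Adam17*, a protease that sheds *Cx3cl1*, had 0.19 ± 0.21.

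The rest of the chemokine ligand family, 27 genes of which 23 were tested, had a median log2 fold change of 0.08, with 12 above and 11 below 0, and 0 were called (5 had an unadjusted p under 0.05 by edgeR, 4 of them higher in *Thra1PV/+*, beside 9.77% and 5.05% of all genes, and DESeq2 called 4, beside 3.86%). The direction of the inflammatory ligands was also known when the 10 genes were listed. The largest values were 5.82 for *Ppbp*, -4.53 for *Ccl21a*, 4.11 for *Cxcl3*, 2.79 for *Ccl3*, 2.20 for *Cxcl2*, 2.13 for *Ccl20*, 1.97 for *Ccl4* and -1.74 for *Xcl1*. *Ccl21a*, which shares the receptor *Ccr7* with *Ccl19*, was at 68.3 CPM in WT library 1 and at most 2.56 CPM elsewhere, and without that library its log2 fold change was -0.62. *Thra1PV/+* library 2, the mutant library with the most *Ccl2* and *Ccl7*, also had the most *Cxcl2* of all 8 at 256 CPM, while WT library 4 was next at 46.5 CPM.

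Among the tissue markers, 12 of 12 stromal genes had a log2 fold change below 0, beside 56.8% of all genes tested. Of the 12, 0 were called by edgeR and 1 had an unadjusted p under 0.05, beside 4.72% of all genes lower at that p. The nearest to the threshold, and the 1 gene called by DESeq2, was *Dcn* at -2.24 ± 0.74 (SE, adjusted p = 0.355 by edgeR), and *Pdgfra* had -0.89 ± 0.60. Of 8 simple epithelium genes 0 were called by edgeR or DESeq2 and 0 had an unadjusted p under 0.05, with *Epcam* at 0.09 ± 0.49. The 6 smooth muscle genes were all below 0 with an unadjusted p under 0.05 by edgeR, beside 4.72% of all genes. EdgeR called 0 of the 6. DESeq2 called 1 of 6 and gave no adjusted p for *Acta2*, *Myh11*, *Cnn1* and *Actg2*. The size of the smooth muscle differences rested on WT library 1. *Acta2* had -4.01 ± 1.37 (SE) with it and -1.38 without it, and *Myh11* had -4.60 ± 1.47 (SE) and -1.93. Without that library 1 of 6 had an unadjusted p under 0.05. Of 8 squamous epithelium genes, 7 were called higher in *Thra1PV/+*, beside 0.924% of all genes. Among the 7 were *Krt5* at 7.43 ± 1.10 (adjusted p = 0.0268 by edgeR) and *Trp63* at 6.11 ± 0.53 (adjusted p = 0.00333 by edgeR). Of the cells that these chemokines attract, macrophage markers summed to 865 to 1539 CPM in *Thra1PV/+* and 658 to 1017 CPM in WT libraries, B and plasma cell markers to 43.6 to 265 and 8.34 to 53.2 CPM, and natural killer markers to 7.65 to 24.4 and 9.55 to 53.8 CPM. In these 3 lists, with 11, 6 and 7 genes tested, 10, 5 and 1 had a log2 fold change above 0. There edgeR called 0 genes, and DESeq2 called 1, 3 and 0, beside 3.86% of all genes. At an unadjusted p under 0.05 by edgeR, 1, 4 and 0 were higher, beside 5.05% of all genes, and 0 were lower, beside 4.72%. T cell markers summed to 14.1 to 37.7 CPM in *Thra1PV/+* and 9.35 to 20.5 CPM in WT libraries. Of 8 tested, 4 were higher and 0 lower at that p, with 0 called by edgeR and 1 by DESeq2. *Klf9*, a thyroid hormone target, was at 3.59 to 16.1 CPM in *Thra1PV/+* and 10.7 to 54.1 CPM in WT libraries (log2 fold change -2.02 ± 0.65 SE, adjusted p = 0.351 by edgeR and 0.0478 by DESeq2, which called it).

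The chemokine genes varied more between libraries of a genotype than most genes of like level. The within-genotype SD of log2 CPM was 2.20 for *Ccl2*, 1.91 for *Ccl7*, 1.52 for *Cxcl12*, 1.27 for *Ccl28*, 1.13 for *Ccl8*, 1.11 for *Ccl11*, 1.08 for *Cxcl17*, 0.84 for *Cx3cl1* and 0.71 for *Cxcl14*. Between 86.1% (*Ccl11*) and 98.4% (*Cxcl12*) of the 1000 tested genes nearest in mean level had a smaller SD. For the 3 members with the highest mean log2 CPM, the genes with the nearest profile were sought, by the mean absolute difference of genotype-centred log2 CPM over 8 libraries. They were *Grin1* (0.13), *Gm19680* (0.19) and *Aldoc* (0.20) for *Ccl28*, *Fut9* (0.11), *Ces2c* (0.12) and *Capn5* (0.13) for *Cxcl17*, and *Shank2* (0.13), *Fhit* (0.13) and *Stap1* (0.13) for *Cxcl14*.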

How the data were processed

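RNA was sequenced from laser-captured endometrium of frozen uterine sections, 4 WT and 4 *Thra1PV/+* libraries. The authors made stranded mRNA libraries, read them paired-end on a NextSeq instrument, trimmed reads with Trimmomatic and quantified them with salmon for mm10, and tested with DESeq2. Their versions are not given in the sources used here. The authors deposited estimated counts per gene, not normalized, and TPM per gene. Ranked from low to high, the TPM columns lay within 0.291 TPM of each other throughout, as quantile-normalized columns would. A TPM column that matched no sample (1) was not used. Salmon spreads reads shared by related genes, and the estimated counts, which are not whole, were rounded.

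Counts were tested with edgeR 4.0.16 in R 4.3.3 (filterByExpr with minimum count 10 and total 15, TMM, quasi-likelihood test with genotype as the only term, Benjamini-Hochberg over 18174 genes). A call needed a fold change of 2 and an adjusted p of 0.1, as in the study. The SE of a log2 fold change came from the F statistic, and log2 CPM used a prior count of 2. Totals of 48791602 to 59818887 counts set the depth. Alternatives were DESeq2 1.42.0, its size factors, upper quartile, other filters (1 count in any library, 10 in every library), limma 3.58.1 on log2(TPM + 1) or log2(TPM + 0.1), replicate number as a block, and each library left out. Scripts were tested on simulated data. The chemokine genes and the gene lists were chosen with earlier results of these data known. Named were the 10 chemokine genes, each tested receptor, called genes and those with the smallest p in the other lists, the first gene of tissue lists, and the 8 other ligands with the largest change. The stromal markers with the largest and the smallest change are named too. From some lists fewer genes are printed, and 1 receptor is not reported here. Promoters are from RefSeq (GRCm38.p6) and positions from GENCODE M21 (GRCm38).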

Additional observations from a re-analysis of the deposited data

Results flagged for a closer look

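*Ackr3*, the scavenging receptor of *Cxcl12*, was at a log2 CPM of 5.41 in *Thra1PV/+* library 1, far above the other mutant libraries, whose log2 CPM lay between 3.31 and 3.61. Its gap to the nearest library exceeded Dixon's 95% critical value for 4 samples. It was the 1 group past that value of 38 groups checked (9 chemokine and 10 receptor genes in 2 genotypes), and chance gives about 1 in 20. The same library held the most stromal transcripts of the mutants, with a summed CPM of 6778, and their part in the *Ackr3* value was not tested.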

How the results depend on the processing

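The log2 fold changes of the 9 chemokine genes moved by less than 1 SD of the replicates in all 144 values from 16 refits. *Cx3cl1* was positive in 11 of its 16 and *Ccl28* in 2 of its 16. That SD was wide, from 0.71 for *Cxcl14* to 2.20 for *Ccl2*, so large moves stayed within it. *Ccl2* went from -2.30 to -0.90 without WT library 4, and *Cxcl17* from -1.21 to -0.28 without WT library 3. The number of genes called, 180, was 81 with at least 10 counts in every library, 702 with DESeq2 (of which 70.5% were higher in *Thra1PV/+*, against 93.3%), 119 on log2(TPM + 1), 82 with the replicate number as a block, and 81 to 167 when each library was left out. The number of receptors called, 1, was 3 with DESeq2 (*Gpr35*, *Cxcr4* and *Ccr1*, beside 3.86% of all genes), 0 on log2(TPM + 1), 0 on log2(TPM + 0.1), 0 with the replicate block and 0 to 1 with libraries left out. The number of handling and marker genes called, 8, was 2 with at least 10 counts in every library, 22 with DESeq2 (which called 3.86% of all genes), 3 with the replicate block, and 3 to 7 with libraries left out. Requiring 10 counts in every library left 15654 genes to test in place of 18174. It drops genes near 0 in 1 genotype, so its numbers of calls are over fewer genes. By deposited TPM, 5 of 10 chemokine genes kept their rank. 4 receptors that were not called by edgeR or DESeq2 changed sign when libraries were left out. In those refits the log2 fold change of *Cx3cr1* lay between -0.19 and 0.59, *Ackr3* between -0.37 and 0.56, *Ccr7* between -1.11 and 0.019, and *Ackr4* between -3.70 and 2.03, with 4 of its fits turned. The cause of these changes was not tested. Same-numbered libraries share only a number, with correlations of deviations between -0.44 and 0.34. With 4 libraries a genotype and 3 counts as the floor, *Ccl19* and *Ccr3* could not be compared at this depth.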
